A study of Homo sapiens with 183 samples.

Results

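The genes described here are the mitochondrial ribosomal protein genes, defined as every gene whose symbol is MRPL or MRPS followed by a number and an optional letter A, B or C. The rule found 78 genes among the 19875 gene names of the 8 expression tables, 49 with MRPL symbols and 29 with MRPS symbols, and all 78 passed the filter on low values in every comparison. The study profiled poly-A RNA of human cancer cell lines, mainly of pancreatic ductal adenocarcinoma (PDAC), in 183 libraries, and asked how the transcription factor KLF5 and the paired AAA+ ATPases RUVBL1 and RUVBL2 control gene expression. Values are TPM, transcript abundances scaled to gene length and to the total of each library.

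Knockouts were collected on day 5 and compared with sgRosa, the negative control guide, within the same line and experiment, numbered as in the replicate labels. AsPC-1 experiment 1 held 6 sgKLF5 and 2 sgRosa libraries, and experiment 2 held 4 each of sgRUVBL1, sgSERPINB5 and sgRosa. AsPC-1 experiment 3 held 4 each of sgKLF5, sgRUVBL1, sgRUVBL2 and sgRosa with 2 each of sgCDK1 and sgRpa3, and a separate AsPC-1 experiment held 4 sgCHD4 and 4 sgRosa libraries. BxPC-3 and T3M-4 each had an experiment 1 with 4 sgKLF5, 2 sgRpa3 and 2 sgRosa libraries. In experiment 2 BxPC-3 had 4 sgKLF5, 4 sgRUVBL1, 3 sgRUVBL2, 2 sgCDK1, 2 sgRpa3 and 4 sgRosa libraries, and T3M-4 had the same numbers apart from 3 sgRUVBL1 and 4 sgRUVBL2. CFPAC-1 contributed 3 sgKLF5, 4 sgRUVBL1, 2 sgRUVBL2, 2 sgCDK1, 2 sgRpa3 and 4 sgRosa libraries, and SUIT-2 4 sgKLF5 and 4 sgRosa. CDK1 and RPA3 are genes that dividing cells need. The labels do not say which guide of a gene a library carries.

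CB-6644, an inhibitor of the RUVBL1/2 ATPase complex, was given for 24 h and compared with its solvent DMSO. AsPC-1 and T3M-4 cells stably carried a lentiviral empty vector (EV), RUVBL1 A62T or RUVBL2 dF109, the study's CB-6644-resistant variants, with 3 CB-6644 libraries and 1 DMSO library each, so the 3 DMSO libraries of a line were pooled as its control. The endogenous RUVBL1 and RUVBL2 genes remain in these cells. Parental T84 (colorectal carcinoma), A375 (melanoma), H1048 (small cell lung carcinoma) and RH30 (alveolar rhabdomyosarcoma) had 4 CB-6644 and 4 DMSO libraries each. The study describes the KLF5, RUVBL1 and RUVBL2 knockout replicates as biological, made with independent guides, but the labels do not tell guides or cultures apart. For the other knockouts and the CB-6644 libraries the sources used here do not say whether replicates were separate cultures, so their p-values measure the spread between libraries, which may be technical.

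Mitochondria carry their own ribosome, which translates the few respiratory chain subunits encoded by mitochondrial DNA. Its RNAs come from the mitochondrial genome, but all of its proteins are encoded in the nucleus, translated in the cytosol and imported. About as many genes are needed for the particle as for the cytosolic ribosome, and its large and small subunits combine homologs of bacterial ribosomal proteins with proteins gained in the mitochondrial lineage. Cells that grow on respiration, cardiac muscle among them, depend on it, and inherited defects in its proteins cause respiratory chain disease.

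Of the 78 members, 51 encode large subunit proteins and 26 small subunit proteins. The remaining gene, MRPS36, keeps a ribosomal symbol but encodes a component of the 2-oxoglutarate dehydrogenase complex. MRPS18A, MRPS18B and MRPS18C are 3 paralogs of a single bacterial protein, S18, and MRPS18A is found in the large subunit in spite of its symbol. In all, 46 members have a homolog in the bacterial ribosome, 29 have no standard bacterial counterpart, and MRPS18A and MRPS18B are counted apart as S18 paralogs.

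Targets and labels were checked first. RUVBL1 stood at 149.6 to 161 TPM in T3M-4 sgRosa and 41.6 to 47.3 in sgRUVBL1, and at 99.9 to 126 against 45.4 to 52.8 in BxPC-3. RUVBL2 stood at 92.03 to 103 TPM in AsPC-1 sgRosa and 31.4 to 55.5 in sgRUVBL2. KLF5 mRNA was lower in CFPAC-1 sgKLF5 (131 to 162 TPM) than in sgRosa (169 to 205), overlapped its controls in AsPC-1, BxPC-3, SUIT-2 and T3M-4 experiment 1, and was higher in T3M-4 experiment 2 (533 to 604 against 262 to 399.8). CHD4 mRNA was 61.7 to 97.5 TPM in sgCHD4 and 65.1 to 69.1 in its sgRosa libraries, so levels of these mRNAs checked the label in CFPAC-1 alone. In CFPAC-1, CDK1 mRNA was 206 to 236 TPM in sgRosa, 194 to 207 in the libraries labelled sgCDK1 and 80.96 to 91.9 in those labelled sgRpa3. This leaves the label sgCDK1 in doubt, though mRNA of KLF5 and CHD4 did not always fall in their knockouts either. RPA3 mRNA was 33.2 to 45.7, 27.9 to 32.7 and 30.3 to 31.7 TPM in the same order and did not separate the labelled sets. Both sets are named below by label, and whether the labels are exchanged was not tested. Lineage genes were present in the named lines: POU2F3 had a median of 476 TPM in H1048 controls, MYOD1 746 in RH30, SOX10 236 in A375 and CDX1 137 in T84. MLANA (1.23) was low in A375, and TRPM5 (0.0632) was near 0 in H1048. Read depth is unknown from TPM values. Genes at 1 TPM or more numbered 11292 to 14024 per library.

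One property of the scale bears on every count below. Rescaling the libraries by the median of ratios moved the median of all genes by more than 0.1 on the log2 scale in many comparisons, for CB-6644 by -0.25 in AsPC-1 EV, -0.18 in T84, -0.20 in A375, -0.20 in H1048 and -0.16 in RH30, but by -0.09 in T3M-4 EV. The member counts after this rescaling are therefore given beside the TPM counts, and members are also set against the median of all genes. Shares of all genes called are given for the TPM scale only, so rescaled counts have no such share beside them. Tests used limma on log2(TPM + 1), and a gene is called at a Benjamini-Hochberg adjusted p below 0.05 over all genes tested. Fold changes are differences on that scale, which understates changes of genes with low TPM.

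The members lie on 21 chromosomes. For 27 of 78 (34.6%) the start lay within 1000 bp of the start of a coding gene on the opposite strand, against 2681 of 20046 coding genes (13.4%) in GENCODE release 44. MRPL49 (chr11:65122183-65127371, hg38, plus strand, 4 exons) starts 6 bp from FAU, and exon sequence of SYVN1 overlaps it on the opposite strand. MRPL27 (chr17:50367857-50373207, minus strand) starts 13 bp from EME1, and MRPL54 (chr19:3762682-3768575, plus strand, 3 exons) 990 bp from APBA3. MRPS14 lies at chr1:175010789-175023425 on the minus strand and MRPL24 at chr1:156737303-156741590 on the minus strand. Pseudogenes are frequent in this family: 36 members have 79 named ones between them, 7 members share exon sequence with a gene on the opposite strand and 6 with one on the same strand. How reads were divided among such copies is not recorded in the tables, so the levels of these members are less certain. Among them, MRPS6 shares exon sequence with SLC5A3 on the same strand, and MRPS25 with NR2C2 on the opposite strand.

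Start regions were read from RefSeq (GRCh38.p14; 250 bases before to 50 after the start), in which 69 members had a record. Motifs were searched as letters on both strands. The YY1 motif AAGATGGCG occurred in 13 of 69 members (18.8%) and in 2.82% of all 14715 records, the ETS motif CCGGAAGT in 11 (15.9%) against 6.33%, and the NRF1 motif GCGCATGC in 6 (8.7%) against 4.27%. Both YY1 and NRF1 are known regulators of mitochondrial genes, and ETS factors such as GABP bind many of their promoters. The E-box CACGTG, which MYC binds, occurred in 6 (8.7%) against 8.91%, the SP/KLF box GGGCGG in 42 (60.9%) against 59.3% and the KLF motif CCACCC in 16 (23.2%) against 37.4%. A match describes these letters and is not a bound site.

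The stretches below show such matches, in capitals, in members that CB-6644 moved in every line tested, as described further on. They run 5′ to 3′ on the gene's strand.
MRPL27, ETS, chr17:50373219-50373246, minus strand: cacgcagggcCCGGAAGTagatctcctg
MRPL27, ETS, chr17:50373175-50373202, minus strand: cttttcgagaCCGGAAGTgagtgatcga
MRPL3, ETS, chr3:131502986-131503013, minus strand: gtaaaacgcaCCGGAAGTgggtccggcg
MRPL16, ETS on the opposite strand, chr11:59810768-59810795, minus strand: agtgaacacaACTTCCGGccccactgag
MRPS22, ETS on the opposite strand, chr3:139343904-139343931, plus strand: ggcccggaagACTTCCGGccctttccgc
MRPL17, NRF1, chr11:6683404-6683431, minus strand: aggctctgatGCGCATGCgcaaacacgt
MRPL42, YY1, chr12:93467512-93467540, plus strand: ggattgaaacAAGATGGCGggttcgtggt
MRPL32, NRF1, chr7:42932327-42932354, plus strand: ctgtgcctgtGCGCATGCtgaaagcagg
MRPL32, YY1 on the opposite strand, chr7:42932143-42932171, plus strand: acccgcgctcCGCCATCTTtacccgaaga
MRPL49, E-box, chr11:65121933-65121953, plus strand: cggctCACGTGgggaaggcca
The first 7 belong to members that fell and the last 3 to members that rose. MRPL54 and MRPS14, which gave some of the widest responses in each direction, held none of the motifs that are named for NRF1, ETS, YY1 or the E-box, and the 30 bases before their starts are shown instead.
MRPL54, chr19:3762652-3762681, plus strand: cactgacgtcttccggaaacgtgcacttgc
MRPS14, chr1:175023426-175023455, minus strand: ggcagtgtcaataaagtttcagcggtttgt

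In the 56 control libraries the 78 members summed to 5836 to 9740 TPM with a median of 8165, and over all libraries the sum was between 0.502% and 1.17% of the total. The median member averaged 90.8 TPM over the controls. MRPL51, a mitochondria-specific large subunit protein, was the most abundant member at a mean of 389 TPM, from 209 in CFPAC-1 to 559 in T3M-4. MRPL20 (236), MRPS34 (234), MRPL21 (217) and MRPL52 (214 TPM) followed, and these 4 lay close together compared with their spread between lines. The lowest means were those of MRPS25 (19.5), MRPL19 (21.01), MRPL22 (23.5), MRPS11 (26.2) and MRPS14 (26.5 TPM). TPM is scaled to length, so a comparison between genes depends on the transcript length assumed. Among the highest members named here, canonical mRNAs ran from 693 bp (MRPL21) to 1111 bp (MRPL52). Among the lowest they ran from 2115 bp (MRPS14) to 7825 bp (MRPL19).

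Lines differed most in MRPS6, a small subunit protein, with a mean of 57.5 TPM in T3M-4 controls and 344 in CFPAC-1. Reads of SLC5A3, which shares exon sequence with it, may enter these values. MRPL45, the protein that anchors the ribosome to the inner membrane, ranged from 43.2 in BxPC-3 to 253 in CFPAC-1, and MRPL41 from 49.8 in RH30 to 269.6 in T84. The 3 S18 paralogs were all expressed, MRPS18B at a mean of 117 TPM, MRPS18A at 78.7 and MRPS18C at 71.7. MRPS36 averaged 47.8 TPM, from 32.1 in T84 to 54.6 in H1048. Lines and library batches cannot be told apart in these levels, which were not tested.

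The comparison of CB-6644 with DMSO asked what inhibition of RUVBL1/2 does in PDAC cells and in lines of other tumours. In all 6 lines more members fell than rose, while among all genes more rose than fell. In AsPC-1 EV cells 28 members fell and 20 rose, where 17.2% of all genes fell and 47.2% rose. In T3M-4 EV cells 24 fell and 6 rose, against 15.2% and 19.1%. The counts that fell and rose were 37 and 17 in T84 (24.2% and 47.2% of all genes), 39 and 19 in A375 (29.7% and 51.5%), 32 and 23 in H1048 (24% and 53.9%) and 40 and 16 in RH30 (27.3% and 50.4%).

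The median member changed by -0.01, -0.10, -0.10, -0.10, -0.04 and -0.10 on the log2 scale in AsPC-1 EV, T3M-4 EV, T84, A375, H1048 and RH30, and the median of all genes by 0.19, 0.04, 0.13, 0.16, 0.18 and 0.13. The family therefore lay below the general shift in each line, by a small amount. After median of ratios the counts that fell and rose became 48 and 2, 22 and 2, 55 and 5, 55 and 9, 53 and 10, and 61 and 3 in the same order. That scaling moved the median of all genes by -0.25, -0.09, -0.18, -0.20, -0.20 and -0.16. The share of all genes called under it is not reported here, so this surplus of falls is not set against all genes. In cultures measured in bulk, a lower share of transcripts does not separate less mRNA per cell from a change in the cells present.

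**Figure D1:**
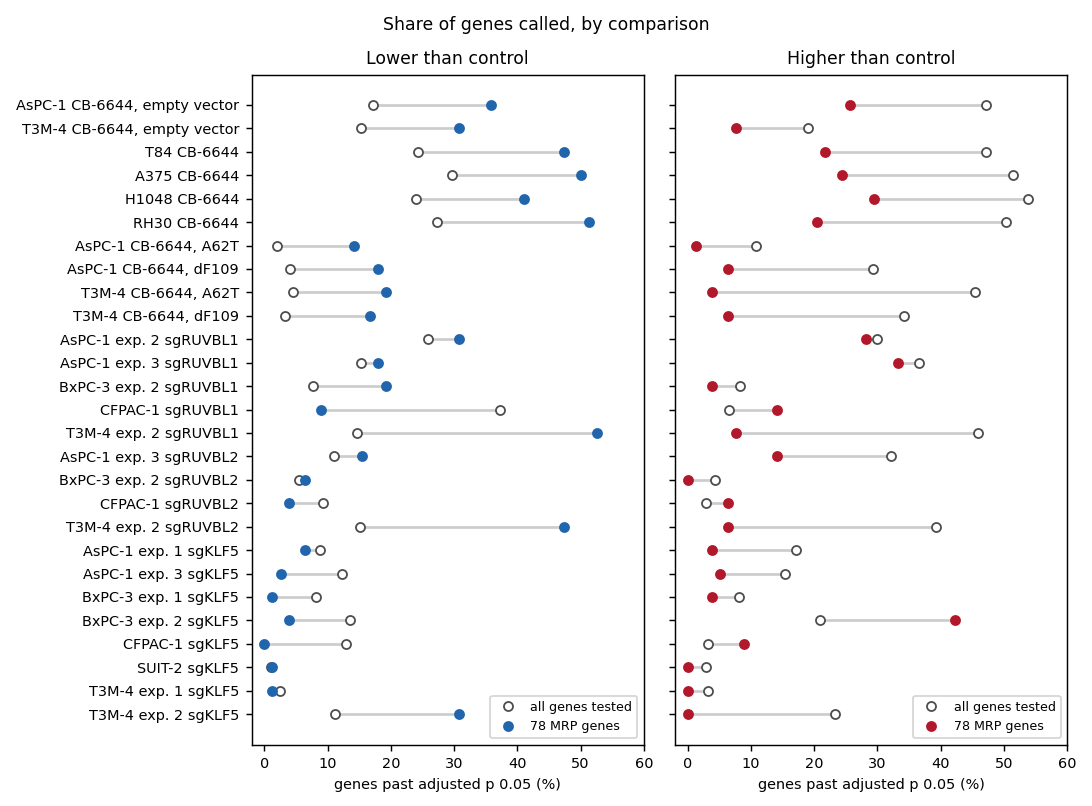
Share of the 78 mitochondrial ribosomal protein genes called lower (blue) or higher (red) in CB-6644, RUVBL1/2 and KLF5 comparisons (percent, horizontal axis), joined to the share of all genes tested (open circles). Under CB-6644 the lower share of members exceeded that of all genes in all 6 lines, for example 40 of 78 members in RH30.

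Individual members moved much more than the family as a whole. Of the 78, 18 fell in all 6 lines, where 5.48% of the 10024 genes tested in all 6 did, and 3 rose in all 6, where 10.6% of all genes did. All 18 also fell in all 6 lines after median of ratios. That scaling moved the median of all genes down in each line, so it could hardly remove a fall. They were MRPL1, MRPL3, MRPL4, MRPL9, MRPL12, MRPL15, MRPL16, MRPL17, MRPL24, MRPL27, MRPL28, MRPL42, MRPL48 and MRPL54 of the large subunit and MRPS22, MRPS26, MRPS28 and MRPS35 of the small subunit. The 3 that rose were MRPL32, MRPL49 and MRPS14, and of these MRPL49 alone was still called higher in all 6 after median of ratios. Every member was called in at least 1 line, and 12 were called in both directions among the 6. Shares of all genes for these counts are not given here. From 34.3% (T3M-4 EV) to 81.1% (A375) of all genes were called per line, so the counts are not read as particular to the members.

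MRPL54, a large subunit protein without a standard bacterial counterpart, gave the largest fall in 5 of the 6 lines, the exception being RH30, where MRPS28 fell further. In H1048 it measured 21.9, 20.7, 15.8 and 18.03 TPM in CB-6644 and 79.2, 72.95, 67.4 and 69.4 in DMSO. In AsPC-1 EV it measured 24.8, 20.1 and 20.2 TPM against 56.4, 59.4 and 65.8, and in T3M-4 EV 32.4, 33.9 and 30.4 against 59.7, 71.97 and 81.7. Treated libraries lay below every control library in each of these lines. Values in T84 were 40.3, 33.9, 41.2 and 38.3 against 88.5, 74.97, 80.97 and 79.1 TPM, in A375 37.3, 41.5, 39.97 and 36.1 against 99.2, 94.1, 93.6 and 95.7, and in RH30 29.6, 31.3, 29.01 and 28.2 against 59.6, 66.7, 58.7 and 57.96. The groups were again separate in all 3. The log2 fold change was -1.87 ± 0.09 (SE) in H1048 (limma adjusted p = 2.66e-09), -1.44 ± 0.09 in AsPC-1 EV (adjusted p = 1.05e-07) and -1.11 ± 0.12 in T3M-4 EV (adjusted p = 5.79e-05). It was -1.05 ± 0.06 in T84, -1.28 ± 0.04 in A375 and -1.01 ± 0.05 in RH30, where the largest adjusted p was 1.42e-09. Every line, whatever its tissue of origin, showed the same direction.

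MRPS28, a small subunit protein, measured 32.1, 34.8, 27.4 and 33.7 TPM in CB-6644 and 64.3, 78.4, 76.9 and 76.02 in DMSO in H1048, a log2 change of -1.18 ± 0.08 (limma adjusted p = 3.81e-08). Across AsPC-1 EV, T3M-4 EV, T84, A375, H1048 and RH30 its changes were -1.05, -0.89, -0.82, -0.56, -1.18 and -1.14. MRPL27, whose bacterial homolog lies next to the peptidyl transferase centre, measured 79.1, 93.7, 80.4 and 74.6 TPM against 186, 182, 194 and 168 in H1048. Its changes over the 6 lines in the same order were -1.12, -0.74, -0.87, -0.76, -1.15 and -0.78. Neither gene had a treated library that reached a control library in H1048.

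MRPL48, mitochondria-specific in the large subunit, measured 36.5, 39.04 and 44.3 TPM against 77.7, 88.9 and 76.8 in T3M-4 EV, and its changes over the 6 lines were -0.95, -1.005, -0.65, -0.82, -0.90 and -0.80. The mitochondria-specific MRPL42 changed by -0.64, -0.67, -0.79, -0.79, -0.76 and -0.36. MRPS26, a small subunit protein, measured 94.5, 86.3, 96.7 and 87.1 TPM against 178, 175, 161 and 163 in A375. In both MRPL48 and MRPS26 no treated library lay in the control range, which was a condition for naming them in these comparisons. MRPL1, a large subunit protein, measured 22.6, 24.6, 21.9 and 24.3 TPM against 43.1, 43.8, 44.6 and 38.3 in A375, a change of -0.84 ± 0.06 (limma adjusted p = 6.49e-08), and moved by -0.42 to -0.32 in AsPC-1 EV and H1048. MRPL12, a stalk protein that also binds the mitochondrial RNA polymerase, changed by -0.36, -0.43, -0.48, -0.27, -0.26 and -0.41 in the 6 lines. Its falls were smaller but all called.

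MRPL49, a mitochondria-specific large subunit protein, was the most evenly raised member. In T84 it measured 133, 136, 136 and 133 TPM in CB-6644 and 83.2, 86.6, 82.1 and 83.7 in DMSO, in A375 142, 145, 144 and 139.7 against 94.2, 91.9, 93.997 and 90.6, and in T3M-4 EV 196, 196 and 178 against 139, 111 and 127. Every treated library lay above every control library in these lines. In AsPC-1 EV the values were 169, 169.8 and 176 against 124, 110.3 and 118 TPM, in H1048 124, 118, 116 and 119.7 against 82.1, 83.04, 78.5 and 83.2, and in RH30 69.5, 68.8, 68.3 and 65.7 against 49.5, 49.3, 47.98 and 46.3. The same held there. Log2 changes were between 0.49 in RH30 and 0.68 ± 0.04 in T84 (limma adjusted p = 7.91e-10), and between 0.28 and 0.50 after median of ratios. FAU, which starts next to it on the opposite strand and encodes a ubiquitin-like protein fused to a ribosomal protein, changed by 0.14, 0.31, 0.03, 0.40, 0.14 and 0.05 in AsPC-1 EV, T3M-4 EV, T84, A375, H1048 and RH30, with the T84 and RH30 values not called.

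MRPS14, a protein of the small subunit head, measured 101, 102, 97.7 and 105 TPM in CB-6644 and 60.8, 60.02, 59.3 and 64.8 in DMSO in H1048, and its changes over the 6 lines were 0.40, 0.61, 0.47, 0.58, 0.72 and 0.39. After median of ratios they ranged from 0.14 to 0.51. MRPL32, a large subunit protein cut to its mature form inside the mitochondrion, changed by 0.31, 0.22, 0.15, 0.47, 0.49 and 0.24, but by -0.04 to 0.28 after median of ratios, so its direction is tied to the scale in at least 1 line. MRPL54 neighbours APBA3, which rose in AsPC-1 EV (0.84), T84 (0.68), A375 (0.72), H1048 (0.53) and RH30 (0.45) as MRPL54 fell. EME1, beside MRPL27, rose in AsPC-1 EV (0.46) and A375 (0.23) and was not called in the other lines.

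**Figure D2:**
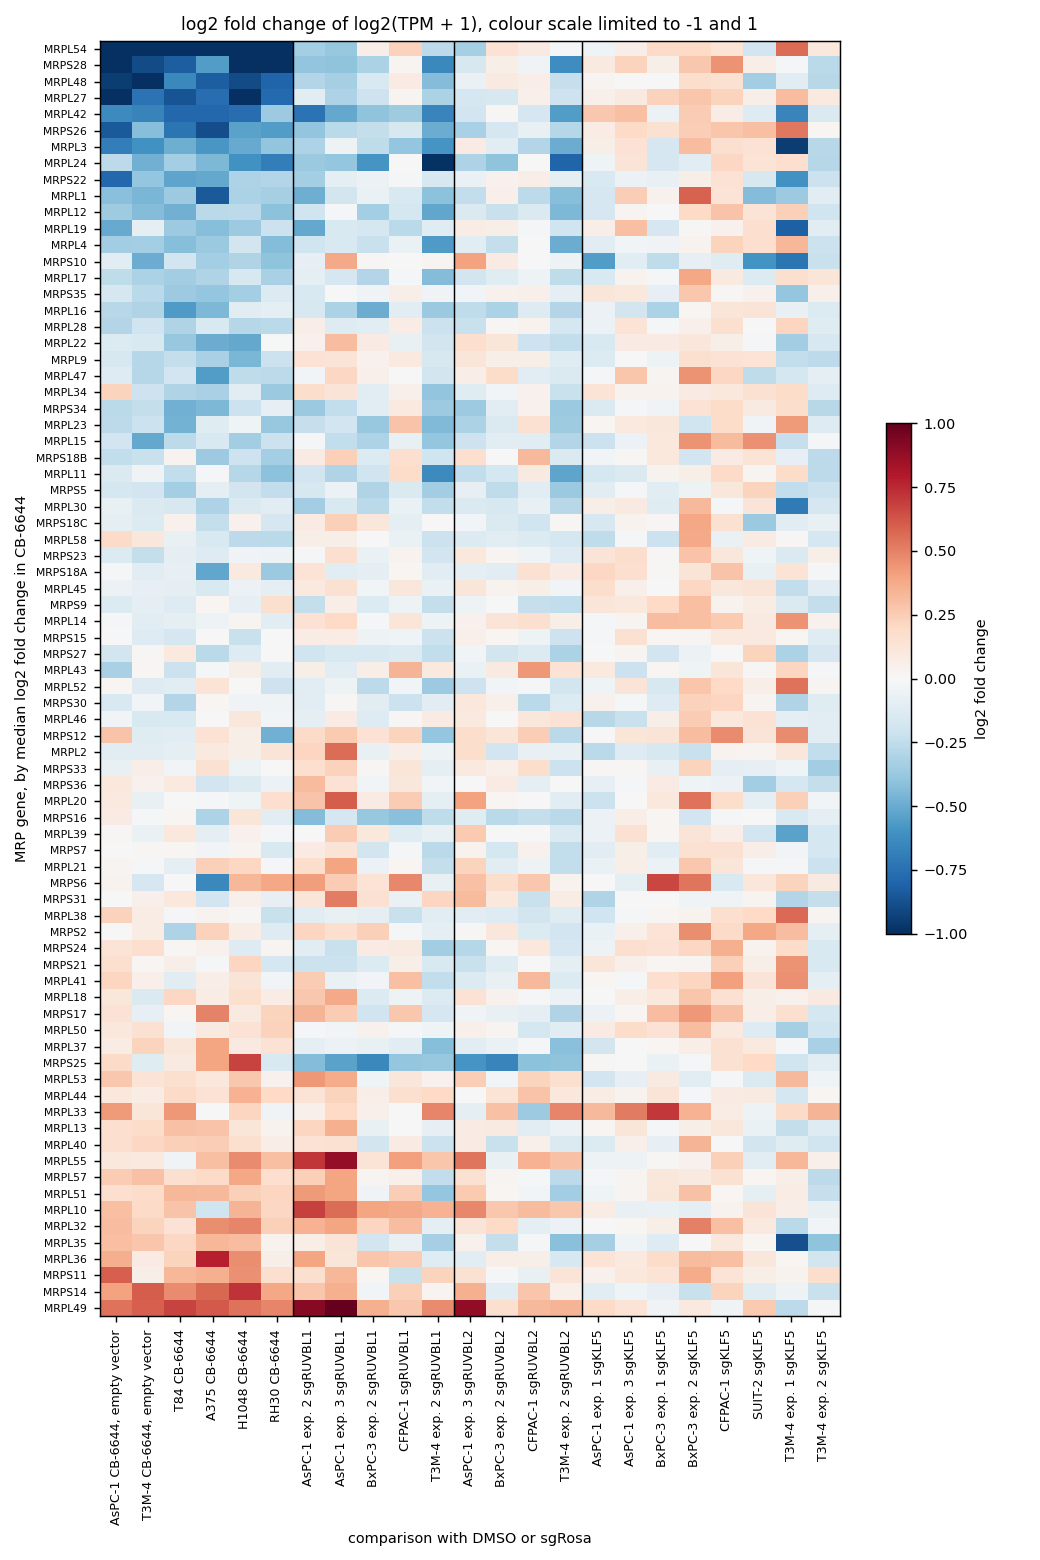
Log2 fold change of TPM + 1 (colour, limited to -1 and 1) for the 78 mitochondrial ribosomal protein genes (vertical) in CB-6644, RUVBL1/2 and KLF5 comparisons (horizontal). Bands of genes such as MRPL54, MRPS28, MRPL27 and MRPL48 are low across the CB-6644 columns, and MRPL49 is high across the CB-6644 and RUVBL1/2 columns.

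The size of the response differed among the 4 parental lines. A test of the difference over T84, A375, H1048 and RH30 (limma moderated F on 32 libraries) called 67 of 78 members, a share close to that of all genes (86.2% of 14250). MRPS6 differed most (adjusted p = 5.94e-14), with changes of -0.003 in T84, -0.64 in A375, 0.33 in H1048 and 0.39 in RH30. Its levels and those of MRPS25 are less certain, since both share exon sequence with another gene. MRPS25 (adjusted p = 8.01e-13), the least abundant member, measured 43.8, 44.1, 42.5 and 42.2 TPM in CB-6644 and 27.5, 26.7, 25.4 and 27.03 in DMSO in H1048. It rose there by 0.67 and in A375 by 0.39, fell by 0.15 in RH30 and changed by 0.09 in T84 (adjusted p = 0.175). MRPL10, a stalk protein, fell in A375 (-0.20) but rose in T84 (0.28), H1048 (0.34) and RH30 (0.21), with adjusted p = 8.24e-09 for the difference. MRPL45 gave no call for a difference (adjusted p = 0.589), nor did MRPL14 (0.323) or MRPS23 (0.314).

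**Figure D3:**
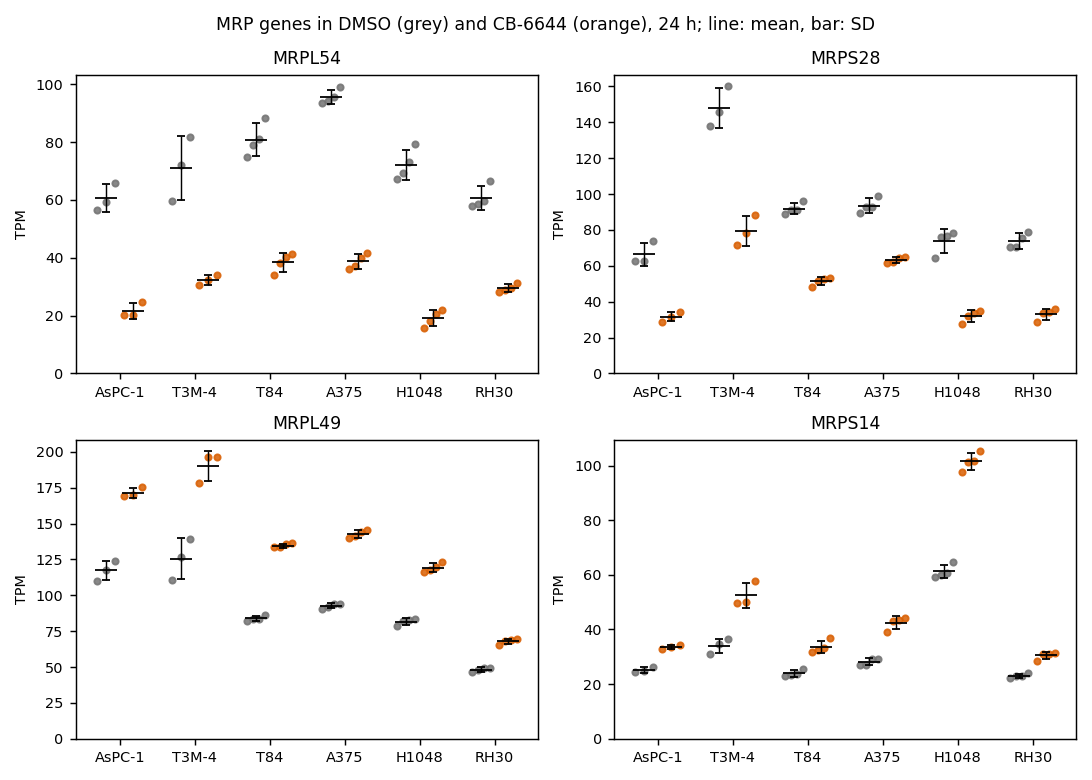
TPM (vertical axis) of MRPL54, MRPS28, MRPL49 and MRPS14 in DMSO (grey) and CB-6644 (orange) by line. Points are libraries, horizontal bars means and vertical bars SD, and for AsPC-1 and T3M-4 the EV cells are set against the 3 DMSO libraries of the line. MRPL54 and MRPS28 are lower and MRPL49 and MRPS14 higher in CB-6644 in every line, without overlap.

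The S18 paralogs did not move as a unit. MRPS18B fell in AsPC-1 EV (-0.24), T3M-4 EV (-0.22), A375 (-0.37), H1048 (-0.21) and RH30 (-0.34), and its value in T84 was 0.03. MRPS18A fell in A375 (-0.52) and RH30 (-0.37) and was not called lower elsewhere. MRPS18C fell in A375 (-0.24) and RH30 (-0.17), and MRPS36 fell in A375 (-0.20) and H1048 (-0.13). Both subunits contributed. Large subunit members that fell and rose numbered 19 against 15, 16 against 5, 26 against 15, 24 against 12, 20 against 17 and 26 against 11 of 51 in the 6 lines, and small subunit members 9 against 5, 8 against 1, 11 against 2, 14 against 7, 11 against 6 and 14 against 5 of 26. Members with a bacterial homolog that fell and rose numbered 16 against 12, 15 against 3, 25 against 9, 24 against 11, 21 against 14 and 27 against 10 of 46, and those without one 11 against 8, 8 against 3, 12 against 8, 12 against 8, 9 against 9 and 11 against 6 of 29. Of members with the ETS motif 4 of 11 fell in all 6 lines, and of the other members with a record 12 of 58. For YY1 these counts were 1 of 13 and 15 of 56, and for NRF1 1 of 6 and 15 of 63. For the E-box they were 0 of 6 and 16 of 63, for the SP/KLF box 8 of 42 and 8 of 27. The KLF motif CCACCC gave 2 of 16 and 14 of 53. A link between motif and response was not tested.

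The study used the resistant variants as a control for whether CB-6644 acts through RUVBL1/2. RUVBL1 mRNA was 2766 to 2964 TPM in the AsPC-1 A62T libraries in CB-6644, against 71.4 to 75.2 in EV, and RUVBL2 mRNA 1889 to 2178 in dF109 against 117 to 125. With variant-carrying cells in CB-6644 set against the pooled DMSO libraries, fewer members fell: 11 with A62T and 14 with dF109 in AsPC-1, compared with 28 in EV cells, and 15 and 13 in T3M-4, compared with 24. Those that rose numbered 1 and 5 in AsPC-1 and 3 and 5 in T3M-4. The shares of all genes that fell and rose were 1.98% and 10.8% for AsPC-1 A62T, 4.1% and 29.3% for AsPC-1 dF109, 4.6% and 45.4% for T3M-4 A62T, and 3.34% and 34.3% for T3M-4 dF109. After median of ratios the members that fell numbered 20, 43, 59 and 45 and none rose, with shifts of the median of all genes of -0.12, -0.18, -0.35 and -0.31. Against their own single DMSO library 0 members were called with A62T in either line, by limma with 1 control library, whereas with dF109 17 fell and 3 rose in AsPC-1 and 14 fell and 4 rose in T3M-4. The A62T counts therefore rest on the scale and on the pooled control, and the dF109 counts on the scale.

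The direct contrast, variant against EV with both in CB-6644, needs no DMSO library. It does not separate a weaker response to CB-6644 from a difference already present without it, which was not tested. In DMSO, MRPL54 measured 59.7, 71.97 and 81.7 TPM in the single A62T, EV and dF109 libraries of T3M-4. In AsPC-1 it measured 56.4, 59.4 and 65.8. In AsPC-1, 22 members were higher and 20 lower with A62T (all genes 18.9% and 32.3%), and 18 higher and 18 lower with dF109 (20.9% and 26.3%). In T3M-4, 15 were higher and 7 lower with A62T (41.4% and 9.21%), and 16 higher and 3 lower with dF109 (29.8% and 4.86%). Rescaled by the median of ratios, the counts higher and lower were 29 and 4, 19 and 4, 3 and 25, and 1 and 11, so the T3M-4 split turned over with the scale.

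The members that fell most in EV cells were higher in both variants. In CB-6644, MRPL54 measured 24.8, 20.1 and 20.2 TPM in AsPC-1 EV, 51.3, 48.4 and 47.7 in A62T and 36.8, 39.95 and 42.7 in dF109. In T3M-4 it measured 32.4, 33.9 and 30.4, then 65.9, 54.5 and 59.3 and 48.1, 47.2 and 53.9. Variant and EV libraries did not overlap in either line. The differences were 1.15 ± 0.09 for AsPC-1 A62T (limma adjusted p = 1.3e-06), 0.85 ± 0.09 for AsPC-1 dF109, 0.87 ± 0.12 for T3M-4 A62T and 0.61 ± 0.12 for T3M-4 dF109 (adjusted p = 0.00517). Set against DMSO, MRPL54 in the variants was at -0.29, -0.59, -0.24 and -0.50 in the same order, where EV cells had -1.44 and -1.11. The T3M-4 A62T value was not called (adjusted p = 0.102).

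MRPS28 was higher than in EV by 0.76, 0.71, 0.52 and 0.36 in AsPC-1 A62T, AsPC-1 dF109, T3M-4 A62T and T3M-4 dF109. MRPL48 was higher by 0.78, 0.68, 0.62 and 0.58, MRPL27 by 0.93, 0.70, 0.59 and 0.38 and MRPL42 by 0.35, 0.34, 0.27 and 0.33. These 4 large and small subunit genes thus moved with MRPL54. MRPL12 measured 156, 137 and 154 TPM in T3M-4 A62T cells in CB-6644 and 184, 220.2 and 245 in DMSO, a change of -0.53 ± 0.10 (limma adjusted p = 0.0055). The members raised by CB-6644 went the other way: MRPS14 was at -0.26, -0.21, -0.30 and -0.25 relative to EV and MRPL49 at -0.26, -0.16, -0.11 and -0.04, the last 2 values of MRPL49 not being called (adjusted p = 0.288 and 0.715). Against DMSO, MRPL49 stayed higher in the variants, by 0.29 and 0.39 in AsPC-1 and 0.49 and 0.56 in T3M-4, none of which was called after median of ratios. Under that scaling MRPL10 in T3M-4 A62T and dF109, MRPS14 in T3M-4 A62T and MRPL32 in AsPC-1 dF109 turned from higher to lower.

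**Figure D4:**
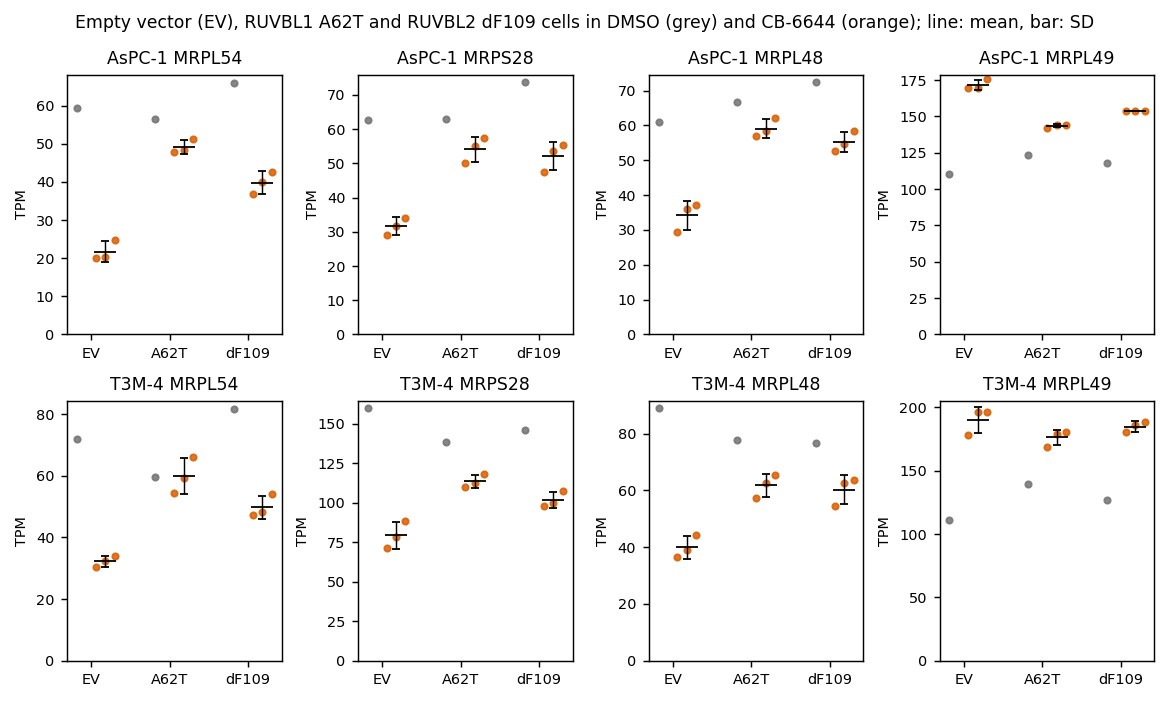
TPM of single libraries of AsPC-1 and T3M-4 cells carrying EV, A62T or dF109, in DMSO (grey, 1 library each) and CB-6644 (orange, 3 libraries each, with mean and SD), for MRPL54, MRPS28, MRPL48 and MRPL49. MRPL54 is lowest in EV cells in CB-6644 and higher in both variants in each line.

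Loss of RUVBL1 or RUVBL2 for 5 days gave falls and rises whose balance depended on the line. In T3M-4, 41 members fell and 6 rose with sgRUVBL1 (all genes 14.6% and 45.9%), and 37 fell and 5 rose with sgRUVBL2 (15.2% and 39.3%). In AsPC-1, 24 fell and 22 rose with sgRUVBL1 in experiment 2 (25.8% and 30%), 14 fell and 26 rose in experiment 3 (15.2% and 36.6%), and 12 fell and 11 rose with sgRUVBL2 (11% and 32.2%). In BxPC-3, 15 fell and 3 rose with sgRUVBL1 (7.67% and 8.29%), and 5 fell and 0 rose with sgRUVBL2 (5.48% and 4.27%). In CFPAC-1, 7 fell and 11 rose with sgRUVBL1 (37.3% and 6.54%), and 3 fell and 5 rose with sgRUVBL2 (9.26% and 2.83%). In T3M-4 sgRUVBL1 the median member was at -0.20 and the median of all genes at 0.25.

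The scale changed several of these splits. With the libraries rescaled, the counts that fell and rose were 69 and 1 for T3M-4 sgRUVBL1 and 60 and 0 for sgRUVBL2. They were 22 and 13, 31 and 7, and 30 and 3 for the 3 AsPC-1 comparisons, so the surplus of rises in experiment 3 became a surplus of falls. For CFPAC-1 they were 2 and 42 with sgRUVBL1 and 0 and 6 with sgRUVBL2, and for BxPC-3 11 and 2, and 1 and 0. The shift of the median of all genes reached -0.26 in T3M-4 and 0.20 in CFPAC-1 with sgRUVBL1.

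MRPL49 rose here as it did with CB-6644. In AsPC-1 experiment 3 it measured 252, 254, 194 and 178 TPM with sgRUVBL1 and 108, 107, 108 and 102 with sgRosa, without overlap. It was called higher in 8 of the 9 RUVBL1/2 comparisons, by 1.02 ± 0.09 at most (limma adjusted p = 9.14e-08) and by 0.27 in CFPAC-1 sgRUVBL1, and its change in BxPC-3 sgRUVBL2 was 0.16 (adjusted p = 0.163). After median of ratios its changes ranged from 0.12 to 0.87. MRPL10, which holds the stalk to the large subunit, was likewise called higher in 8 of 9, and in AsPC-1 experiment 2 measured 72.7, 71.6, 74.7 and 74.95 TPM against 44.9, 43.6, 44.1 and 48.6. Its largest change was 0.69 ± 0.06 (adjusted p = 2e-07), and after median of ratios the 9 changes ranged from 0.05 to 0.65. That scaling removed the T3M-4 sgRUVBL1 call of MRPL10 and the T3M-4 sgRUVBL2 calls of MRPL49 and MRPL55. MRPL55, a small protein of the large subunit, measured 146, 140.0, 125 and 143 TPM against 78.3, 76.4, 72.9 and 72.3 in AsPC-1 experiment 3 and was called higher in 7 of 9. MRPL20 measured 245, 265, 214 and 259 against 156, 148, 160.1 and 179.9 there. In all 4 genes the knockout libraries lay above every control, as the rule for naming them required.

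MRPS25, which shares exon sequence with NR2C2, was called lower in 8 of 9 comparisons, while it rose in H1048 and A375 under CB-6644. Its changes over AsPC-1 experiment 2 and experiment 3 sgRUVBL1, AsPC-1 sgRUVBL2, BxPC-3 sgRUVBL1 and sgRUVBL2, CFPAC-1 sgRUVBL1 and sgRUVBL2, and T3M-4 sgRUVBL1 and sgRUVBL2 were -0.43, -0.54, -0.59, -0.65, -0.66, -0.39, -0.41, -0.38 and -0.41, with CFPAC-1 sgRUVBL2 not called (limma adjusted p = 0.0937). MRPS16, a small subunit protein with a bacterial homolog, was also lower in 8 of 9, with changes of -0.43 to -0.12. In CFPAC-1 it measured 81.04, 78.6, 77.5 and 82.2 TPM with sgRUVBL1 and 108, 104, 105 and 111 with sgRosa. Neither gene changed sign after median of ratios in the comparisons that called it, with MRPS16 at -0.54 to -0.14. The CFPAC-1 sgRUVBL2 call of MRPS16 was lost under that scaling.

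MRPL24, at the exit of the large subunit tunnel, gave the largest fall in T3M-4. It measured 96.98, 87.4 and 88.4 TPM with sgRUVBL1 and 180.5, 181, 175 and 189.8 with sgRosa, a change of -0.99 ± 0.06 (limma adjusted p = 2.39e-09). The groups were far apart relative to their spread. Over the 9 comparisons in the order above its changes were -0.38, -0.39, -0.31, -0.59, -0.40, 0.01, 0.01, -0.99 and -0.80, with values near 0 in CFPAC-1. MRPL16, near the large subunit's tRNA sites, measured 61.03, 61.3, 63.8 and 64.1 TPM in BxPC-3 sgRUVBL1 and 105, 83.8, 86.1 and 82.3 in sgRosa and was lower in 7 of 9. MRPL42 measured 18.7, 20.99, 20.8 and 20.3 against 34.9, 29.9, 36.1 and 36.6 in AsPC-1 experiment 2, and MRPL19 12.04, 14.8, 13.2 and 12.96 against 18.4, 17.8, 21.3 and 19.8. Neither overlapped its controls, again a condition of naming. MRPL3, a core large subunit protein, measured 142, 147, 152 and 159 TPM against 198, 208, 187 and 193 in CFPAC-1 sgRUVBL1, and was lower in 6 of 9. Under median of ratios the BxPC-3 sgRUVBL2 calls of MRPL24 and MRPL16 and the CFPAC-1 sgRUVBL2 call of MRPL3 were lost. MRPL43 rose in CFPAC-1 sgRUVBL2, at 187 and 209 TPM against 148, 131, 155 and 153, a group of 2 libraries.

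MRPL54, which fell most under CB-6644 in 5 lines, was called in 2 of the 9 knockout comparisons. Its 9 changes in the same order were -0.34, -0.38, -0.33, 0.06, 0.15, 0.23, 0.09, -0.26 and -0.02, and those of AsPC-1 experiment 2 (limma adjusted p = 0.00554) and T3M-4 sgRUVBL1 (adjusted p = 0.0137) were called. Inhibitor and knockout differ in time, 24 h against 5 days, and in protein loss, and their difference was not tested.

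**Figure D5:**
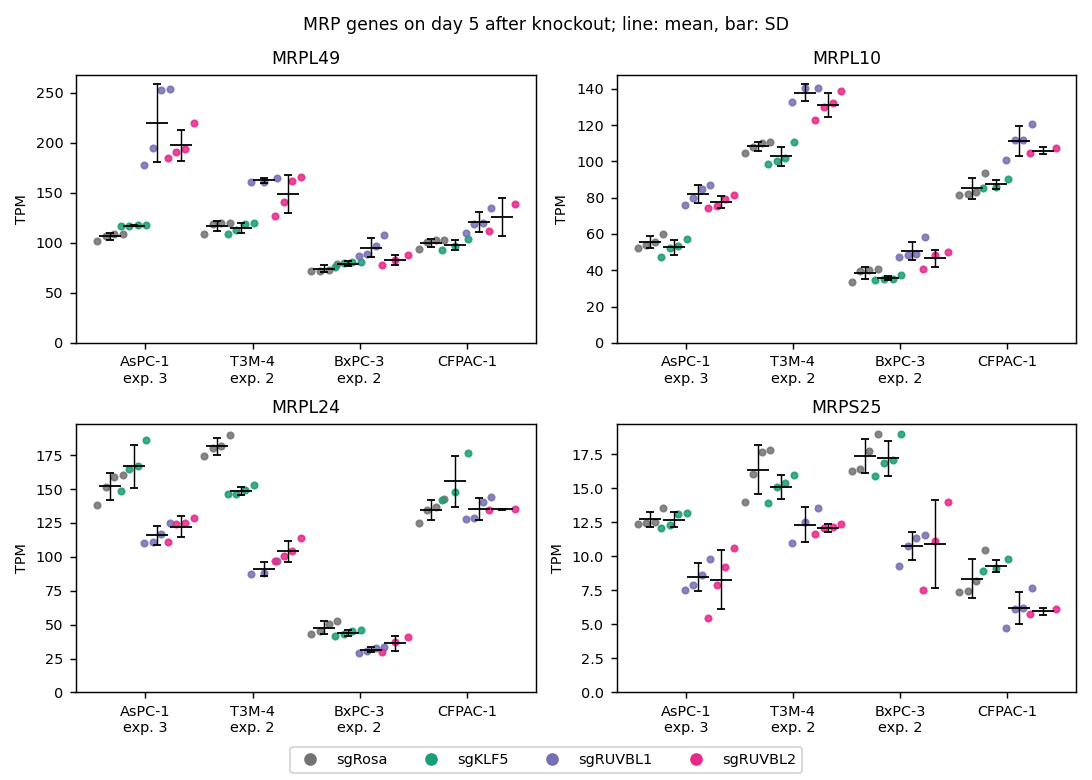
TPM (vertical axis) of MRPL49, MRPL10, MRPL24 and MRPS25 in single libraries of sgRosa, sgKLF5, sgRUVBL1 and sgRUVBL2 cells on day 5, with mean (line) and SD (bar), by line and experiment. MRPL49 is higher and MRPL24 lower with sgRUVBL1 than with sgRosa in T3M-4.

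Few members were called between RUVBL2 and RUVBL1 knockouts. Set directly against each other, sgRUVBL2 and sgRUVBL1 differed in 4 members in AsPC-1 (of all genes 1.53% were lower and 2.18% higher), namely MRPL2, MRPL13, MRPL32 and MRPL55, all lower with sgRUVBL2, at -0.38, -0.28, -0.27 and -0.34. The limma test called 0 members in T3M-4 (0.0226% of all genes in either direction), BxPC-3 (0.0323%) and CFPAC-1 (0.0235%), where 7, 11 and 8 members had an unadjusted p below 0.05. This does not show that the knockouts acted alike. KLF5 and RUVBL1 knockouts differed much more, in 48 members in AsPC-1, 28 in T3M-4, 47 in BxPC-3 and 23 in CFPAC-1. With sgKLF5 relative to sgRUVBL1, 25 were lower and 23 higher in AsPC-1 (9 and 33 after median of ratios), 8 lower and 20 higher in T3M-4 (3 and 29), 2 lower and 45 higher in BxPC-3 (3 and 34), and 4 lower and 19 higher in CFPAC-1 (7 and 13). Of all genes 39.1% were lower and 19.4% higher in AsPC-1, 30.5% and 15.3% in T3M-4, 18.8% and 25.2% in BxPC-3, and 10.3% and 20.7% in CFPAC-1. MRPL10 was lower with sgKLF5 in BxPC-3 (-0.49) and CFPAC-1 (-0.34), and MRPL49 was lower there too, at -0.26 and -0.30.

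KLF5 knockout moved few members, and which ones varied between lines and experiments. The counts that fell and rose were 5 and 3 in AsPC-1 experiment 1 (all genes 8.81% and 17.1%), 2 and 4 in AsPC-1 experiment 3 (12.3% and 15.4%), 1 and 3 in BxPC-3 experiment 1 (8.1% and 8.09%), 3 and 33 in BxPC-3 experiment 2 (13.6% and 21%), 0 and 7 in CFPAC-1 (13% and 3.26%), 1 and 0 in SUIT-2 (1% and 2.94%), 1 and 0 in T3M-4 experiment 1 (2.46% and 3.26%), and 24 and 0 in T3M-4 experiment 2 (11.2% and 23.4%). In experiment 2 BxPC-3 and T3M-4 moved many members, in opposite directions, and the other 6 comparisons moved fewer than 10 each. After median of ratios the counts were 3 and 16 in BxPC-3 experiment 2, 43 and 0 in T3M-4 experiment 2 and 0 and 32 in CFPAC-1, which then also passed 10. Over the 8 comparisons 49 members were never called lower and 41 never called higher. Shares of all genes for these counts are not given here. Some comparisons called few genes of any kind, as in SUIT-2 (1% and 2.94%), so the counts do not show a stable family.

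MRPL33, a small protein of the large subunit, was the member most often raised, in 4 of 8 comparisons. In BxPC-3 experiment 1 it measured 183, 164, 149 and 167 TPM with sgKLF5 and 101 and 102 with sgRosa, a change of 0.71 ± 0.09 (limma adjusted p = 0.000455), and it rose by 0.32, 0.52 and 0.35 in AsPC-1 experiments 1 and 3 and BxPC-3 experiment 2. The AsPC-1 experiment 1 call was lost after median of ratios. MRPS6 measured 140.3, 137, 138 and 137 TPM against 83.6 and 89.02 in BxPC-3 experiment 1, and rose by 0.67 there and 0.53 in experiment 2. Both genes lay above control in every BxPC-3 experiment 1 knockout library. In BxPC-3 experiment 2 MRPL1 (0.59) and MRPL20 (0.54) rose furthest.

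MRPS10 and MRPL35 were each lower in 3 of 8. MRPS10, a small subunit head protein, measured 84.96, 86.8, 83.1 and 67.99 TPM in SUIT-2 sgKLF5 and 109, 146, 117 and 119 in sgRosa, a change of -0.60 ± 0.14 (limma adjusted p = 0.0466), and fell by 0.56 in AsPC-1 experiment 1 and 0.22 in T3M-4 experiment 2. MRPL35 measured 39.6, 34.01, 41.1 and 45.8 TPM in T3M-4 experiment 1 and 74.6 and 73.9 in the 2 sgRosa libraries, a change of -0.88 ± 0.18 (limma adjusted p = 0.03), and this call was lost after median of ratios (-0.63). Groups did not overlap, but T3M-4 experiment 1 sgKLF5 replicate 2 stood apart from its group in the summed level of the family, at 11654 TPM, the highest of all libraries. The SUIT-2 and T3M-4 experiment 1 calls depended on single libraries: leaving out any one but SUIT-2 sgRosa replicate 1 (2 members called) or T3M-4 sgKLF5 replicate 2 (16 called) left 0 members called by limma in the comparison concerned. The other members called in comparisons with few calls were MRPL16 (-0.32) and MRPS17 (0.31) in BxPC-3 experiment 1, MRPL15 (-0.21), MRPL58 (-0.25), MRPS31 (-0.30), MRPL49 (0.20) and MRPS18A (0.21) in AsPC-1 experiment 1, and MRPL19 (0.30), MRPL42 (0.30), MRPL47 (0.28), MRPL43 (-0.21) and MRPL46 (-0.22) in AsPC-1 experiment 3. The calls of MRPL16 and MRPS17 in BxPC-3 experiment 1, MRPL49 and MRPS18A in AsPC-1 experiment 1 and MRPL42 in AsPC-1 experiment 3 were each lost under median of ratios, in a fit with the replicate number as a block and with a single library left out, and those of MRPL46 and MRPL47 under median of ratios. In AsPC-1 experiment 1 the calls of MRPL35 and MRPS31 were lost with that block and with a single library left out, and that of MRPL33 under median of ratios and with a single library left out.

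Repeats of one knockout in one line were tested against each other. The effect of KLF5 loss differed between AsPC-1 experiments 1 and 3 in 3 members (5.69% of all genes), MRPL1 (-0.42), MRPL35 (-0.29) and MRPS10 (-0.45), given as experiment 1 minus experiment 3. It differed between the T3M-4 experiments in 9 (17.4%) and between the BxPC-3 experiments in 13 (16.7%), where all 13 were lower in experiment 1 minus experiment 2, MRPL58 furthest (-0.59). RUVBL1 loss differed between AsPC-1 experiments 2 and 3 in 8 (14.3%), among them MRPS10 (-0.46) and MRPL41 (0.32). For sgRpa3, 9 members differed in BxPC-3 (7.77%), led by MRPL1 (0.97), and 0 in T3M-4 (0.107%, limma). These shares were at or below those of all genes except in BxPC-3 sgRpa3.

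CDK1 and RPA3 knockouts, with 2 libraries each, remove genes that dividing cells need. Whether a change in the other knockouts follows from lost proliferation was not tested. With sgCDK1, 12 members fell and 5 rose in AsPC-1 (of all genes 6.44% fell and 10.3% rose), 19 fell and 0 rose in T3M-4 (3.85% and 13%; 34 and 0 members after median of ratios), 2 fell and 3 rose in BxPC-3 (2.12% and 3.71%), and limma called 0 in the CFPAC-1 libraries labelled sgCDK1 (0%; 9 at an unadjusted p below 0.05). With sgRpa3, 35 fell and 0 rose in BxPC-3 experiment 2 (of all genes 11.6% and 9.12%), 20 fell and 0 rose in T3M-4 experiment 2 (6.2% and 18.4%; 39 and 0 members after median of ratios), and 15 fell and 1 rose in the CFPAC-1 libraries labelled sgRpa3 (3.39% and 8.17%; 26 and 1). The CFPAC-1 values of both knockouts are given by label, and these labels are in doubt. Limma called 0 members with sgRpa3 in AsPC-1 (0.654%; 8 at an unadjusted p below 0.05), in T3M-4 experiment 1 (0%; 0) and in BxPC-3 experiment 1 (0.307%; 1). The summed level of the family was lowest in BxPC-3 experiment 2 sgRpa3, at 5023 and 5148 TPM. MRPL1 fell there by 0.94, MRPL48 by 0.98 in AsPC-1 sgCDK1, and MRPS6 rose by 1.01 in BxPC-3 sgCDK1.

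Knockout of the chromatin remodeler gene CHD4 in AsPC-1 lowered 14 members and raised 12 (of all genes 26.7% fell and 23.3% rose; 8 and 13 members after median of ratios), with MRPL28 at 0.68 and MRPL24 at -0.35 at the ends. Knockout of SERPINB5 called 0 members by limma (0.0343%; 3 at an unadjusted p below 0.05). Counted over the 39 comparisons with a control, MRPL49 (19), MRPL10 (17), MRPL32 (12), MRPS14 (12) and MRPS6 (11) were called higher most often, and MRPL3 (22), MRPL24 (22), MRPL42 (17), MRPL48 (17) and MRPS28 (17) lower most often. Many of these comparisons share control libraries and are not independent of each other.

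Other genes of mitochondrial gene expression were counted from lists under CB-6644, as genes that fell against genes that rose in AsPC-1 EV, T3M-4 EV, T84, A375, H1048 and RH30. The mitoribosomal proteins that go by other symbols (5 tested) gave 1 against 2, 0 against 0, 1 against 2, 1 against 3, 0 against 2 and 2 against 1, with DAP3, a small subunit protein, rising by 0.43 in AsPC-1 EV and 0.47 in A375. Assembly and rRNA modification factors (26) gave 6 against 9, 6 against 4, 8 against 7, 9 against 13, 4 against 15 and 7 against 8, translation factors (14) 5 against 2, 1 against 2, 7 against 3, 5 against 6, 2 against 3 and 6 against 7, and genes of mitochondrial transcription and DNA maintenance (13) 3 against 4, 4 against 2, 3 against 6, 5 against 4, 5 against 6 and 5 against 4. Each of the last 3 lists held genes that fell and genes that rose in every line. Transcripts encoded in mitochondrial DNA are not analysed here.

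The mitochondrial aminoacyl-tRNA synthetases (19 tested), which charge tRNAs for the same ribosome, gave 9 against 4, 7 against 4, 8 against 5, 10 against 7, 8 against 6 and 9 against 5. SARS2, which charges serine tRNAs, fell further than any mitochondrial ribosomal protein gene of the same line, with changes of -1.68, -1.54, -1.74, -2.04, -2.39 and -2.03 over the 6 lines. The cytosolic ribosomal proteins (83 to 85) gave 50 against 3, 2 against 7, 62 against 1, 44 against 19, 63 against 9 and 46 against 13, and their medians were -0.23, 0.16, -0.17, -0.07, -0.19 and -0.09. The nuclear-encoded respiratory chain subunits (78 to 79), whose partners the mitochondrial ribosome makes, rose more often than they fell, with 3 against 48, 4 against 25, 14 against 41, 12 against 53, 14 against 47 and 19 against 44 and medians of 0.20, 0.15, 0.13, 0.20, 0.14 and 0.10. Those medians lay close to the ones of all genes given above, apart from T3M-4 EV. MYC, a known activator of ribosome genes, was lower in all 6 lines, at -0.87, -1.39, -1.06, -0.88, -0.75 and -0.997, and regulators of mitochondrial genes as a list (8 to 9) gave 4 against 1, 3 against 0, 7 against 0, 6 against 1, 8 against 0 and 6 against 0. In T3M-4 sgRUVBL1, respiratory chain subunits gave 51 against 3 and cytosolic ribosomal proteins 76 against 0, with a median of -0.40. The fall of the mitochondrial ribosomal genes in T3M-4 was thus accompanied by falls in both of these groups.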

How the data were processed

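Single-end 76 bp poly-A reads were pseudo-aligned by the authors with kallisto to hg38, low-abundance transcripts were removed, and the deposited values are TPM per gene from tximport. Each library sums to a fixed total, so read depth is unknown and no counting interval can be given. The count test of the study could not be run on these values. Instead log2(TPM + 1) was fitted with limma 3.58.1 (R 4.3.3; trended empirical Bayes), in 1 fit per line and experiment, over genes that averaged 1 TPM or more in the libraries of that fit. P-values were Benjamini-Hochberg adjusted over all genes tested, with 0.05 as the threshold. Samples were grouped by title and genotype labels, and no column was left out. The 3 DMSO libraries of AsPC-1 and of T3M-4 were pooled as the control of each line. The difference among the 4 parental lines was a moderated F test. Members, gene lists and tests were chosen with earlier results of these data known. Genes were named by rule, as the 3 largest rises and falls per KLF5, RUVBL1/2 or CB-6644 comparison with all treated libraries beyond all controls, the 5 called most often in each direction over comparisons, the 5 highest and lowest in controls, the S18 paralogs and MRPS36, and from other lists the 2 largest called. Other genes in the text were added after their values were seen. Alternatives were a pseudocount of 0.1, no filter, median of ratios scaling, the replicate number as a block, each library left out, the own DMSO library as control, and CFPAC-1 without the libraries labelled sgCDK1 and sgRpa3. Same-numbered libraries deviated together (every pair's correlation over 0.1) in BxPC-3 experiment 2 sgRUVBL2 against sgRUVBL1 alone. The scripts were tested on simulated data. Positions are from GENCODE release 44 and promoters from RefSeq (GRCh38.p14). Motif counts used Python 3.11.15 with pandas 2.3.3, and figures matplotlib 3.10.9.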

Additional observations from a re-analysis of the deposited data

Results flagged for a closer look

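In all, 83 sets of values were examined for a library far from the others, each a named gene or the summed family in a group of 4 to 10 libraries. Of these, 2 held one, where chance gives about 1 in 20. The sets share libraries and many of the genes were picked for separated groups, so that rate is only a guide. MRPL16 measured 104.8 TPM in BxPC-3 experiment 2 sgRosa replicate 1, while the other sgRosa libraries measured 82.3 to 86.1. MRPS28 measured 64.27 TPM in H1048 DMSO replicate 1, while the other DMSO libraries measured 76.02 to 78.4.

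Among the 4 parental lines 67 members differed in their response to CB-6644, a share close to that of all genes (86.2% of 14250). Of these members, 9 were also called in opposite directions in at least 1 pair of lines, and the share of all genes for this count is not given here. The limma adjusted p of the difference was 5.94e-14 for MRPS6, 8.01e-13 for MRPS25, 2.47e-10 for MRPS16, 8.24e-09 for MRPL10, 8.62e-09 for MRPS2, 1.13e-06 for MRPS12, 4.63e-06 for MRPL21, 3.03e-05 for MRPS21 and 0.000449 for MRPS9. Repeats of one knockout in one line differed in 3 members for KLF5 (5.69% of all genes) and 8 for RUVBL1 (14.3%) in AsPC-1. They differed in 9 for KLF5 in T3M-4 (17.4%), and in 13 for KLF5 (16.7%) and 9 for RPA3 (7.77%) in BxPC-3. What sets the lines or experiments apart was not tested.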

How the results depend on the processing

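Under median of ratios the called members changed from 12 to 20 in AsPC-1 A62T and 19 to 43 in AsPC-1 dF109 (CB-6644 against DMSO), 18 to 59 in T3M-4 A62T and 18 to 45 in T3M-4 dF109, 36 to 23 for AsPC-1 dF109 against EV and 19 to 12 for T3M-4 dF109 against EV. For KLF5 they changed from 4 to 2 and 36 to 19 in BxPC-3 experiments 1 and 2, 6 to 3 in AsPC-1 experiment 3, 7 to 32 in CFPAC-1 and 24 to 43 in T3M-4 experiment 2. For RUVBL2 they went from 5 to 1 in BxPC-3, for RUVBL1 from 18 to 44 in CFPAC-1, and for RUVBL2 against RUVBL1 from 4 to 2 in AsPC-1. For CDK1 they went from 5 to 2 in BxPC-3 and 19 to 34 in T3M-4, and for RPA3 from 16 to 27 in CFPAC-1 and 20 to 39 in T3M-4 experiment 2. Between experiments the counts became 1 (from 3) and 4 (from 8) for AsPC-1 KLF5 and RUVBL1, and 1 (from 13) and 15 (from 9) for BxPC-3 KLF5 and RPA3. The direction of MRPL32 in AsPC-1 dF109 (-0.024), MRPS14 in T3M-4 A62T (-0.077) and MRPL10 in T3M-4 A62T (-0.11) and dF109 (-0.11) reversed.

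With no filter 4 members were called in AsPC-1 A62T and 1 differed between the AsPC-1 KLF5 experiments. With the own DMSO library 0 were called in A62T cells of either line. With a pseudocount of 0.1, 0 were called in SUIT-2. Without the libraries labelled sgCDK1 and sgRpa3, 5 rather than 8 were called for CFPAC-1 RUVBL2. With the replicate block the KLF5 counts were 4 in AsPC-1 experiment 1 (from 8), 2 in BxPC-3 experiment 1, 7 in T3M-4 experiment 1 (from 1), 4 in CFPAC-1 and 0 in SUIT-2, and the CDK1 counts 11 in AsPC-1 and 3 in BxPC-3. The numbers pair libraries in BxPC-3 sgRUVBL2 against sgRUVBL1, where the block also gave 0. CB-6644 against DMSO in AsPC-1 and T3M-4 takes no block.

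With 1 library left out, counts ranged as follows, the library named giving the lower end. For CB-6644 they ranged from 1 to 18 in AsPC-1 A62T (A62T replicate 1), 7 to 23 in AsPC-1 dF109 (dF109 replicate 2), 12 to 24 in T3M-4 A62T (within 1.5 times) and 10 to 24 in T3M-4 dF109 (dF109 replicate 1), and against EV 13 to 21 for T3M-4 A62T (A62T replicate 3) and 6 to 16 for T3M-4 dF109 (dF109 replicate 3). For KLF5 they ranged from 1 (sgRosa replicate 1) to 13 (without sgKLF5 replicate 4) in AsPC-1 experiment 1, 3 to 7 in AsPC-1 experiment 3 (sgKLF5 replicate 4), 2 to 5 in BxPC-3 experiment 1 (sgRosa replicate 2), 2 (sgKLF5 replicate 1) to 17 (without sgRosa replicate 2) in CFPAC-1, 0 to 2 in SUIT-2 (0 without any library but sgRosa replicate 1), 0 to 16 in T3M-4 experiment 1 (0 without any library but sgKLF5 replicate 2) and 14 to 27 in T3M-4 experiment 2 (sgKLF5 replicate 2). For RUVBL2 they ranged from 3 to 7 in BxPC-3 (sgRUVBL2 replicate 3) and 1 to 10 in CFPAC-1 (sgRUVBL2 replicate 1), and against RUVBL1 0 (sgRUVBL1 replicate 2) to 7 in AsPC-1 and 0 to 2 (without sgRUVBL2 replicate 2) in BxPC-3. For CDK1 they ranged from 3 to 13 in AsPC-1 (sgCDK1 replicate 2), 2 to 5 in BxPC-3 and 6 to 22 in T3M-4 (sgCDK1 replicate 1 in both), and for RPA3 from 10 to 41 in BxPC-3 experiment 2, 2 to 16 in CFPAC-1 (sgRpa3 replicate 1 in both) and 8 to 26 in T3M-4 experiment 2 (sgRpa3 replicate 2). A lone remaining library was assumed to vary like the other groups.

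Of 1545 values of named genes under these alternatives, 1365 kept their call, 176 lost it and 4 changed direction. In the 6 EV or parental CB-6644 comparisons the total of called members stayed within 1.5 times of its value, while its split by direction moved with median of ratios. The cause of the changes was not tested, and read depth, unknown here, limits what a missed call shows.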
